A study of Mus musculus with 23 samples.

Results

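The genes described here are the matrix metalloproteases (Mmp), the membrane-anchored metalloprotease-disintegrins (Adam), the secreted ADAMs with thrombospondin repeats (Adamts), the ADAMTS-like proteins that lack a protease domain (Adamtsl) and the tissue inhibitors of metalloproteases (Timp). They were taken by gene symbol from 43154 features measured in mouse heart RNA, and 84 features carried such a symbol: 23 Mmp, 33 Adam, 19 Adamts, 5 Adamtsl and 4 Timp genes. Of these, 36 reached 1 FPKM (sequenced fragments scaled by gene length and library total) in at least 3 of the 23 libraries and are called expressed below: 8 Mmp, 10 Adam, 10 Adamts, 4 Adamtsl and all 4 Timp genes. By the same floor 13710 of all features were expressed.

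RNA sequencing covered hearts of C57BL/6 mice that either carried a calcineurin transgene under the myosin heavy chain (MHC) promoter of heart muscle cells (CnATg), a model of severe cardiac hypertrophy, or were wild type (WT). The mice received vehicle or 50 mg/kg of JIB-04, which blocks Jumonji-type histone demethylases, with 3 doses a week. The groups were, at day 77 of age, CnATg with JIB-04 (4 libraries), CnATg with vehicle (4) and WT with JIB-04 (3), and, at day 45, CnATg with JIB-04, CnATg with vehicle, WT with JIB-04 and WT with vehicle (3 each). Treatment of CnATg mice began in week 5 for the day 77 groups and in week 4 for the day 45 groups, so age and length of treatment cannot be told apart. No WT vehicle group of day 77 was analysed here, the start week of the WT JIB-04 mice is not given in their labels, and the study's design text speaks of vehicle only for WT mice. Whether the libraries stand for separate mice is not stated in the labels, so p-values measure the spread between these libraries.

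Metalloproteases of these families cut collagens, proteoglycans and glycoproteins of the extracellular matrix, and the ADAMs also release growth factors and receptors from the cell surface. TIMPs bind the active site of these enzymes, and the balance between enzymes and inhibitors is a standard measure of matrix turnover in the growing or failing heart. ADAMTS-like proteins do not cut, and several of them bind the fibrillin microfibrils that hold latent TGF-beta. All values below are transcript levels. Activation of the pro-enzymes and protein amounts were not measured.

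Ppp3ca, which encodes a calcineurin catalytic subunit, ranged over 1415 to 1987 FPKM among the 14 libraries of CnATg hearts and over 23.6 to 29.0 FPKM among the 9 of WT hearts, so every library matched its genotype label. Between 12381 and 12782 features per library reached 1 FPKM. Mitochondrial genes took 15.5 to 17.4% of all FPKM in CnATg hearts and 20.8 to 27.1% in WT hearts. Depth relative to the other libraries was estimated from the most frequent ratio between libraries among values under 1 FPKM at short loci. It ran from 0.957 to 1.31 in CnATg and from 0.586 to 0.948 in WT. WT JIB-04 day 45 replicate 2 gave the lowest WT mitochondrial share and depth and the highest summed FPKM. Without it WT libraries ran from 24.1 to 27.1% and from 0.832 to 0.948, with summed FPKM of 690160 to 777910. The WT JIB-04 samples carry sample numbers apart from all others, so that any separate handling and the group cannot be told apart.

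The order of levels differed between genotypes. FPKM is scaled by gene length, so levels can be set side by side between genes. Over the 23 libraries the median was 54.8 FPKM for Timp3, 45.6 for Adamtsl5, 39.9 for Timp2, 31.2 for Adamtsl2 and 26.1 for Mmp2. Adamtsl4 at 20.6 FPKM, Adam15 at 18.7, Mmp15 at 18.3 and Adam9 at 17.4 came next. These medians rest on more CnATg than WT libraries. Among CnATg libraries alone Mmp2 was the most abundant protease, with a median of 28.5 FPKM, while among WT libraries Mmp15 at 37.5 FPKM and Adam15 at 28.0 FPKM stood above Mmp2 at 20.8 FPKM, and only Timp3 at 69.1 FPKM stood above Mmp15. The least abundant expressed genes were Adam8, Adamts3 and Adamts8, with medians of 0.799, 0.763 and 0.740 FPKM, each at 1 FPKM or more in 9 libraries. Just outside the floor stood Adamtsl1, which reached 1 FPKM in 2 libraries with a maximum of 1.31, and Adamts17, which reached it in 1 library with a maximum of 1.00. The other 46 features stayed under 1 FPKM in every library. They included the collagenase genes Mmp8 and Mmp13, the gelatinase gene Mmp9 with a maximum of 0.469 FPKM, the aggrecanase gene Adamts4 with a maximum of 0.190 FPKM, and Adam12 with a maximum of 0.411 FPKM.

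In vehicle-treated hearts of day 45, the CnATg genotype came with a different inhibitor set, more of several ADAMTS and ADAMTS-like transcripts and less of another group of proteases. Of the 36 expressed genes, 11 were higher and 8 lower in CnATg than in WT vehicle hearts by limma, a linear model on log2(FPKM + 1) fitted over all features, at a Benjamini-Hochberg adjusted p under 0.05. Over the 13289 features tested, 23.3% were called higher and 15.9% lower. The median log2 fold change was -0.01 over the 36 genes and 0.07 over all features. Mmp3, Adamts6, Adamts8, Adam8 and Mmp19 reached 1 FPKM only in CnATg libraries and Adamts3 only in WT libraries. Their entry through one genotype favours a difference, and over the other 30 genes the count was 8 higher and 7 lower. The split between directions over all features depended on scaling: 59.5% of calls were higher as deposited, against 49.1% with median-ratio scaling, 45.7% when quantiles were equalised and 73.6% when values were rescaled without the mitochondrial and hemoglobin genes.

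Cell type markers moved with the genotype too. All 12 endothelial markers were lower in CnATg vehicle hearts at day 45 (0 higher), and their summed level ranged over 230 to 359 FPKM in CnATg and 435 to 523 FPKM in WT over all libraries. Of 10 fibroblast markers 8 were higher and 1 lower, with sums of 938 to 1331 FPKM in CnATg and 739 to 941 FPKM in WT. Of 9 activated fibroblast markers tested 8 were higher and 1, Fap, lower, with sums of 302 to 590 FPKM in CnATg and 53.2 to 173 FPKM in WT. Acta2 belongs to this list and to that of smooth muscle and pericytes, so both sums hold it. Macrophage marker sums overlapped, at 193 to 374 FPKM in CnATg and 217 to 363 FPKM in WT, with 2 higher and 1 lower of 10. Of 8 neutrophil markers 6 were under 1 FPKM in every library, and the 2 tested were lower. Their sums overlapped over all libraries, at 1.70 to 13.3 FPKM in CnATg and 1.36 to 15.7 FPKM in WT. Of 3 T and B cell markers tested 2 were lower, with sums of 2.00 to 5.89 FPKM in CnATg and 3.85 to 9.29 FPKM in WT. Smooth muscle and pericyte markers summed to 375 to 672 FPKM in CnATg and 270 to 409 FPKM in WT (1 higher, Acta2, and 4 lower of 8 tested), and cardiomyocyte markers to 14250 to 16481 FPKM in CnATg and 17862 to 20800 FPKM in WT (2 higher and 5 lower of 10). These sums were not rescaled to the FPKM total of a library, which was lower in every CnATg than in every WT library. The part of that offset in the marker differences was not tested. In bulk RNA fewer cells of a type and less RNA per cell cannot be told apart, and the part of these shifts in the results below was not tested.

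**Figure D1:**
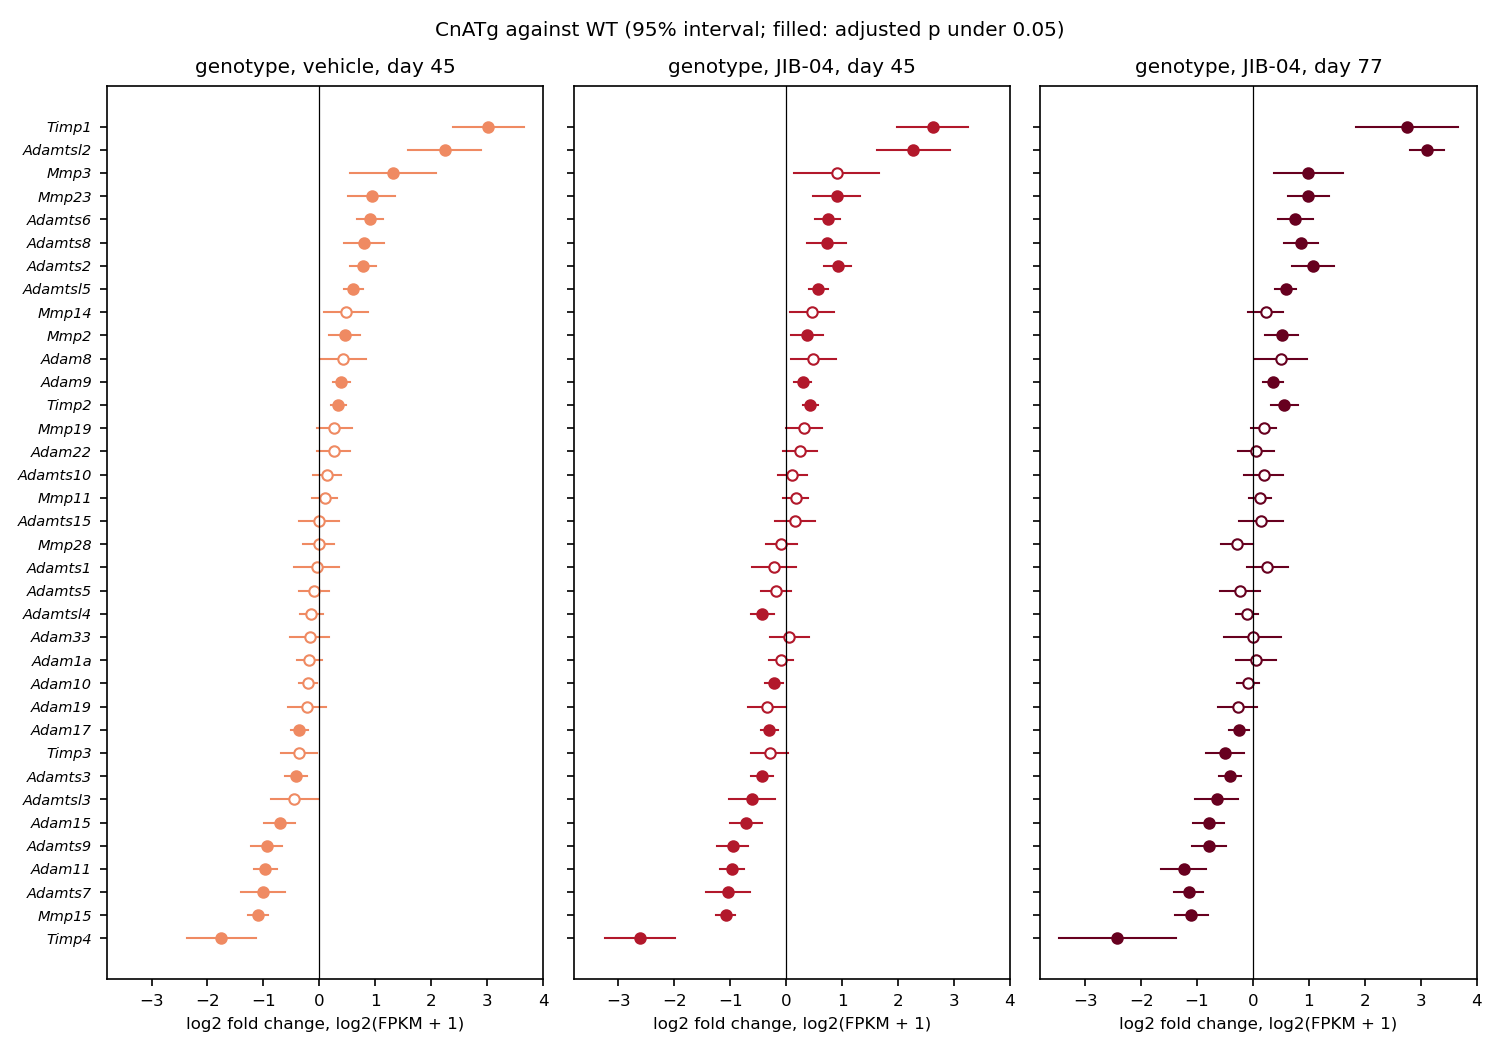
Log2 fold change of CnATg over WT for each of the 36 expressed genes on the log2(FPKM + 1) scale, with vehicle at day 45, with JIB-04 at day 45 and with JIB-04 at day 77. Points are estimates, lines 95% intervals, and filled points have an adjusted p under 0.05 in limma; Timp1 and Adamtsl2 stand highest and Timp4 lowest in each panel.

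Timp1, a secreted inhibitor of most MMPs (chromosome X, 20870166 to 20874735, GRCm38), showed the largest increase. It measured 31.2, 12.9 and 21.0 FPKM in CnATg vehicle hearts at day 45, against 2.17, 1.52 and 1.30 FPKM in WT vehicle hearts. The groups did not overlap, and the CnATg libraries were also far apart from each other. The means were 21.7 ± 9.18 FPKM for CnATg and 1.66 ± 0.454 FPKM for WT (SD, 3 libraries each), a ratio of 13.0 and a log2 fold change of 3.02 (SE 0.29, adjusted p = 1.05e-05).

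Timp4, the TIMP best known from heart tissue (chromosome 6, 115245616 to 115251849), went the other way. It measured 5.74, 2.71 and 2.99 FPKM in CnATg vehicle hearts and 21.0, 10.2 and 14.4 FPKM in WT vehicle hearts at day 45. All 3 CnATg libraries lay under all 3 WT libraries. The log2 fold change was -1.75 (SE 0.28, adjusted p = 0.00048), and the CnATg mean was 0.250 of the WT mean.

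Timp2, which inhibits MMPs and also takes part in the activation of pro-MMP2 (chromosome 11, 118301069 to 118355740), measured 43.1, 42.3 and 41.6 FPKM in CnATg vehicle hearts, against 35.2, 34.4 and 30.6 FPKM in WT vehicle hearts. The groups did not overlap, with a difference small in size and narrow in spread (log2 fold change 0.34, SE 0.06, adjusted p = 0.0012). Timp3, a matrix-bound inhibitor that also acts on ADAM17 and ADAMTS enzymes (chromosome 10, 86300372 to 86349506), measured 48.8, 39.8 and 54.8 FPKM in CnATg and 69.1, 65.5 and 50.5 FPKM in WT vehicle hearts. The lowest WT library lay within the CnATg range, and with a log2 fold change of -0.36 (95% interval -0.69 to -0.03) Timp3 was not called (adjusted p = 0.076 in limma).

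**Figure D2:**
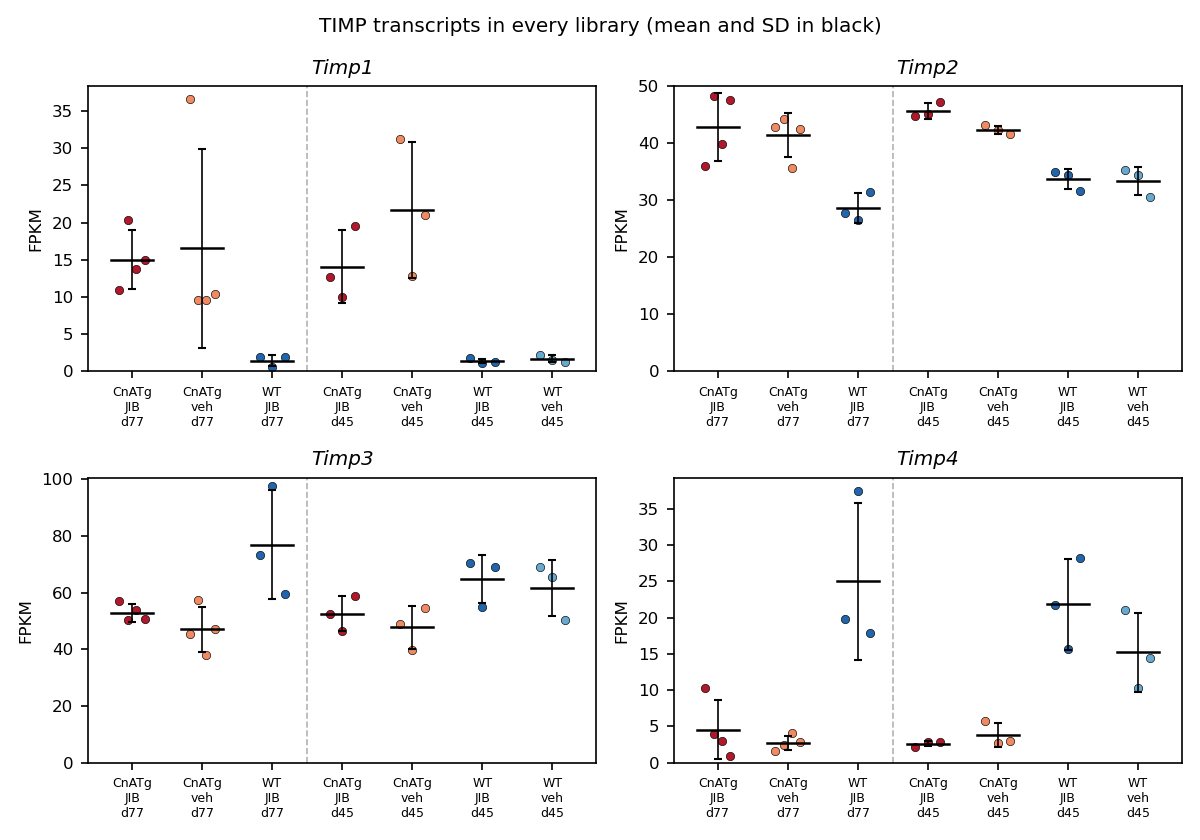
FPKM of the 4 TIMP genes in every library (points) with the mean and SD of each group (black lines), day 77 groups left of the dashed line and day 45 groups right of it. Timp1 is at 9.53 FPKM or more in every CnATg library and at 2.17 or less in every WT library, and Timp4 is at 10.3 or less in CnATg and at 10.2 or more in WT.

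Promoter sequence is shown for the 4 genes with the largest genotype differences with vehicle, Timp1, Adamtsl2, Timp4 and Mmp3, so that the start regions of genes that rose and of one that fell can be set side by side. Each runs 5′ to 3′ on the strand of the gene, from 250 bases before to 50 bases after the RefSeq start on GRCm38.p6. Capitals mark matches to the letters searched on both strands: TGAGTCA or TGACTCA (AP-1), TGAGTAA or TTACTCA (an AP-1 variant), TGGAAA or TTTCCA (the core bound by NFAT, the factor family that calcineurin activates) and TATAAA on the gene's strand (TATA box). The RefSeq start of Timp4 lies upstream of the start in the deposited locus.
Timp1 (chrX:20869916-20870215, plus strand): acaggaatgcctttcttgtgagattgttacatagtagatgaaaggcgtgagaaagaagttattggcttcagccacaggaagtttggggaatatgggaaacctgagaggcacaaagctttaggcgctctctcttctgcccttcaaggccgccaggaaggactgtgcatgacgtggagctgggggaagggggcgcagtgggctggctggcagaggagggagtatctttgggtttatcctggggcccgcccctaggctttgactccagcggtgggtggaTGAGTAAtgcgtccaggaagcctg
Adamtsl2 (chr2:27079129-27079428, plus strand): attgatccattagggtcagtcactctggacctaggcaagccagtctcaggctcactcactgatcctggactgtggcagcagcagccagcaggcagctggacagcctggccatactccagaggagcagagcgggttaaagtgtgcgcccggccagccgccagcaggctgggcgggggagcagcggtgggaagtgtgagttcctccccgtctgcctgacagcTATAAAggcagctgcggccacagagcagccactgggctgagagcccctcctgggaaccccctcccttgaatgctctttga
Timp4 (chr6:115252156-115252455, minus strand): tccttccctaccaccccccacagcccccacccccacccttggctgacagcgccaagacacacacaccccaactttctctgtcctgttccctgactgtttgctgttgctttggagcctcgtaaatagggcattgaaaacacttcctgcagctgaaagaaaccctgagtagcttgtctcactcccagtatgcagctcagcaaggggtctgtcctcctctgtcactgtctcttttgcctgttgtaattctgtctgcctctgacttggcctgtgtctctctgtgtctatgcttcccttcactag
Mmp3 (chr9:7445572-7445871, plus strand): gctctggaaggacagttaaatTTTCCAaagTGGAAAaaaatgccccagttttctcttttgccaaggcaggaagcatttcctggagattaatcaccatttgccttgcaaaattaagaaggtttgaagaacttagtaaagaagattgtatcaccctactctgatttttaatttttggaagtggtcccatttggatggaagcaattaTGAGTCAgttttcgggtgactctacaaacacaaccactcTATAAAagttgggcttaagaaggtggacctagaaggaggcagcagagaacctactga

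Mmp3 carried an AP-1 match 46 bases before its start, a pair of NFAT matches and a TATA match 7 bases before its start. Timp1 held an AP-1 variant match 26 bases after its start, and Adamtsl2 a TATA match 30 bases before its start. None of these letters occurred in the Timp4 window. Among 32851 mouse promoters of this length, 5.20% held the AP-1 letters, 2.68% the variant, 21.4% the NFAT letters and 8.32% the TATA letters. Of the 36 expressed genes 25 had an entry, and among them AP-1 occurred in 2 (Mmp3 and Adam19) and the variant in 1 (Timp1). The NFAT letters occurred in 3 (Mmp3, Adam19 and Adam1a) and TATA in 3 (Mmp3, Adamtsl2 and Adamts1). These are matches of letters and not sites of binding.

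Among the metalloproteases, Mmp3, Mmp23 and Mmp2 were higher and Mmp15 lower in CnATg vehicle hearts at day 45. The other 4 of the 8 expressed Mmp genes were not called, beside 23.3% higher and 15.9% lower over all features. Mmp3 and Mmp19 reached 1 FPKM only in CnATg libraries, and such entry favours a difference. Mmp3 encodes stromelysin-1, which cuts proteoglycans and activates other pro-MMPs (chromosome 9, 7445822 to 7455972). It measured 5.42, 1.24 and 1.08 FPKM in CnATg hearts and 0.222, 0.285 and 0.232 FPKM in WT hearts. One CnATg library stood far above the other 2, which themselves lay above all WT libraries (log2 fold change 1.32, SE 0.35, adjusted p = 0.011). Without that library, CnATg replicate 1, the log2 value was 0.79 (adjusted p = 0.0076). In each of the 4 CnATg groups the library with the highest Timp1 also had the highest Mmp3, which was so in 0 of the 3 WT groups; this was seen after the values were examined and was not tested.

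Mmp23 encodes a small membrane-anchored MMP without a hemopexin domain (chromosome 4, 155650655 to 155653384). It measured 11.03, 8.53 and 10.2 FPKM in CnATg and 6.19, 4.72 and 3.44 FPKM in WT vehicle hearts (log2 fold change 0.94, SE 0.19, adjusted p = 0.0022). The groups did not overlap. Mmp2, gelatinase A (chromosome 8, 92827328 to 92853417), measured 32.5, 39.4 and 32.8 FPKM in CnATg and 26.9, 28.7 and 20.6 FPKM in WT vehicle hearts. The groups lay side by side without overlap (log2 fold change 0.45, SE 0.13, adjusted p = 0.016), but the call was lost without CnATg replicate 2 (0.36, adjusted p = 0.065), without WT replicate 3 (0.31, adjusted p = 0.062) and with equalised quantiles (0.35, adjusted p = 0.056).

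Mmp15, the membrane-type MMP MT2-MMP (chromosome 8, 95352268 to 95374293), had the lowest adjusted p of the 36 genes. It measured 17.2, 17.3 and 21.1 FPKM in CnATg vehicle hearts, against 42.7, 41.4 and 37.9 FPKM in WT vehicle hearts (log2 fold change -1.10, SE 0.08, adjusted p = 1.2e-06). Every CnATg library lay well under every WT library. The related membrane-type gene Mmp14, whose product activates pro-MMP2, measured 9.14, 9.35 and 6.98 FPKM in CnATg and 3.89, 7.29 and 6.62 FPKM in WT, with overlap between the groups and an adjusted p of 0.055 (log2 0.48). Mmp11, Mmp19 and Mmp28 had log2 values of 0.09, 0.27 and -0.01 and were not called. Mmp19 overlaps Tmem198b, at 2.63 to 4.55 FPKM, and Mmp28 overlaps 1700020L24Rik, at 0.811 to 4.88 FPKM.

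Of the 10 expressed ADAMTS genes 3 were higher, 3 lower and 4 not called, beside 23.3% higher and 15.9% lower over all features. Adamts6 and Adamts8 reached 1 FPKM only in CnATg libraries and Adamts3 only in WT libraries. Their entry favours a difference, so the family count cannot be read against that background. Adamts2, the main procollagen N-proteinase, which trims fibrillar procollagens before fibrils form (chromosome 11, 50602084 to 50807573), measured 10.2, 9.34 and 10.2 FPKM in CnATg vehicle hearts and 5.17, 6.20 and 4.72 FPKM in WT vehicle hearts. The groups did not overlap (log2 fold change 0.78, SE 0.11, adjusted p = 0.00018). Adamts3, a second procollagen N-proteinase that also processes VEGF-C (chromosome 5, 89673841 to 89883334), went the opposite way at low levels, at 0.763, 0.721 and 0.796 FPKM in CnATg and 1.25, 1.44 and 1.34 FPKM in WT (log2 -0.41, SE 0.09, adjusted p = 0.0033).

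Adamts6 and Adamts8 were also higher. Adamts6, a protease tied to fibrillin microfibrils (chromosome 13, 104287873 to 104494763), measured 1.76, 1.34 and 1.63 FPKM in CnATg and 0.355, 0.474 and 0.305 FPKM in WT vehicle hearts (log2 0.90, SE 0.10, adjusted p = 4.5e-05). Adamts8, of the proteoglycan-cutting branch (chromosome 9, 30942562 to 30963838), measured 1.57, 0.740 and 1.15 FPKM in CnATg and 0.272, 0.220 and 0.181 FPKM in WT (log2 0.80, SE 0.16, adjusted p = 0.0021). For both genes the groups did not overlap. Adding 1 FPKM before taking logs shrinks such low levels, and the ratios of means were 4.17 for Adamts6 and 5.15 for Adamts8.

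Adamts7 and Adamts9 fell in CnATg. Adamts7, which cuts COMP and is known from injured vessels (chromosome 9, 90163069 to 90208071), measured 5.33, 3.76 and 5.94 FPKM in CnATg and 10.5, 11.6 and 10.96 FPKM in WT vehicle hearts (log2 fold change -1.01, SE 0.18, adjusted p = 0.00096). Adamts9, a versican-cutting enzyme (chromosome 6, 92772699 to 92943492), measured 1.07, 1.09 and 1.67 FPKM in CnATg and 3.20, 3.40 and 3.44 FPKM in WT (log2 -0.94, SE 0.13, adjusted p = 0.00013). The CnATg values of both genes lay under all WT values. The proteoglycan-cutting Adamts1, Adamts5 and Adamts15 and the microfibril-associated Adamts10 were not called, with log2 values of -0.05, -0.09, -0.01 and 0.14. Adamts7 and Adamts9 overlap other expressed features on the opposite strand (Tbc1d2b, at 2.49 to 5.14 FPKM, and 9530026P05Rik, at 0.299 to 2.29 FPKM), and the library kit kept no strand, so reads of the overlap cannot be told apart.

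The ADAMTS-like genes held the largest change outside the TIMPs. Adamtsl2, whose product binds microfibrils and latent TGF-beta binding protein and is mutated in human geleophysic dysplasia (chromosome 2, 27079379 to 27108981), measured 25.5, 35.6 and 41.0 FPKM in CnATg vehicle hearts, against 9.02, 5.58 and 4.87 FPKM in WT vehicle hearts. The lowest CnATg library was far above the highest WT library, and the ratio of means was 5.24 (log2 fold change 2.24, SE 0.30, adjusted p = 0.00011). Adamtsl5, a fibrillin-binding relative (chromosome 10, 80339110 to 80348412), measured 49.1, 48.9 and 48.5 FPKM in CnATg and 34.9, 28.3 and 32.3 FPKM in WT (log2 0.61, SE 0.08, adjusted p = 0.00010). Adamtsl3 and Adamtsl4 had log2 values of -0.45 and -0.14 and adjusted p-values of 0.084 and 0.25.

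Of the 10 expressed ADAM genes 1 was higher, 3 were lower and 6 were not called, beside 23.3% higher and 15.9% lower over all features. Adam9, a shedding protease (chromosome 8, 24949611 to 25016922), measured 21.3, 18.3 and 19.8 FPKM in CnATg vehicle hearts and 15.0, 14.6 and 14.9 FPKM in WT vehicle hearts (log2 fold change 0.39, SE 0.07, adjusted p = 0.00098). Adam15, a shedding protease with an integrin-binding motif (chromosome 3, 89338542 to 89349996), measured 17.2, 16.6 and 18.7 FPKM in CnATg and 29.0, 30.4 and 28.0 FPKM in WT (log2 -0.71, SE 0.13, adjusted p = 0.0010). In neither gene did the groups overlap.

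Adam11, a relative without a working catalytic site (chromosome 11, 102761439 to 102780262), measured 1.56, 1.32 and 1.17 FPKM in CnATg and 3.86, 3.31 and 3.56 FPKM in WT vehicle hearts (log2 -0.96, SE 0.09, adjusted p = 1.3e-05). Adam17, the TNF-alpha converting enzyme (chromosome 12, 21323509 to 21373632), measured 8.70, 8.11 and 8.43 FPKM in CnATg and 11.1, 10.97 and 11.1 FPKM in WT (log2 -0.36, SE 0.07, adjusted p = 0.0020). Both genes had all CnATg libraries under all WT libraries, but Adam17 was no longer called when values were rescaled without mitochondrial and hemoglobin genes (-0.26, adjusted p = 0.065), and it overlaps Iah1, which lay at 8.79 to 28.0 FPKM. Adam10, the main shedding enzyme of Notch receptors, just missed the threshold (log2 -0.20, 95% interval -0.36 to -0.04, adjusted p = 0.054). Adam8, Adam22, Adam33, Adam19 and Adam1a were not called, with log2 values of 0.42, 0.26, -0.17, -0.22 and -0.18. Adam1a, at 2.35 FPKM or less, overlaps Mapkapk5 on the same strand at 17.7 to 40.3 FPKM and Tmem116 at 3.10 to 14.4 FPKM. Its own level is therefore uncertain. Adam19 overlaps Gm16033, at 0.677 to 2.96 FPKM.

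**Figure D3:**
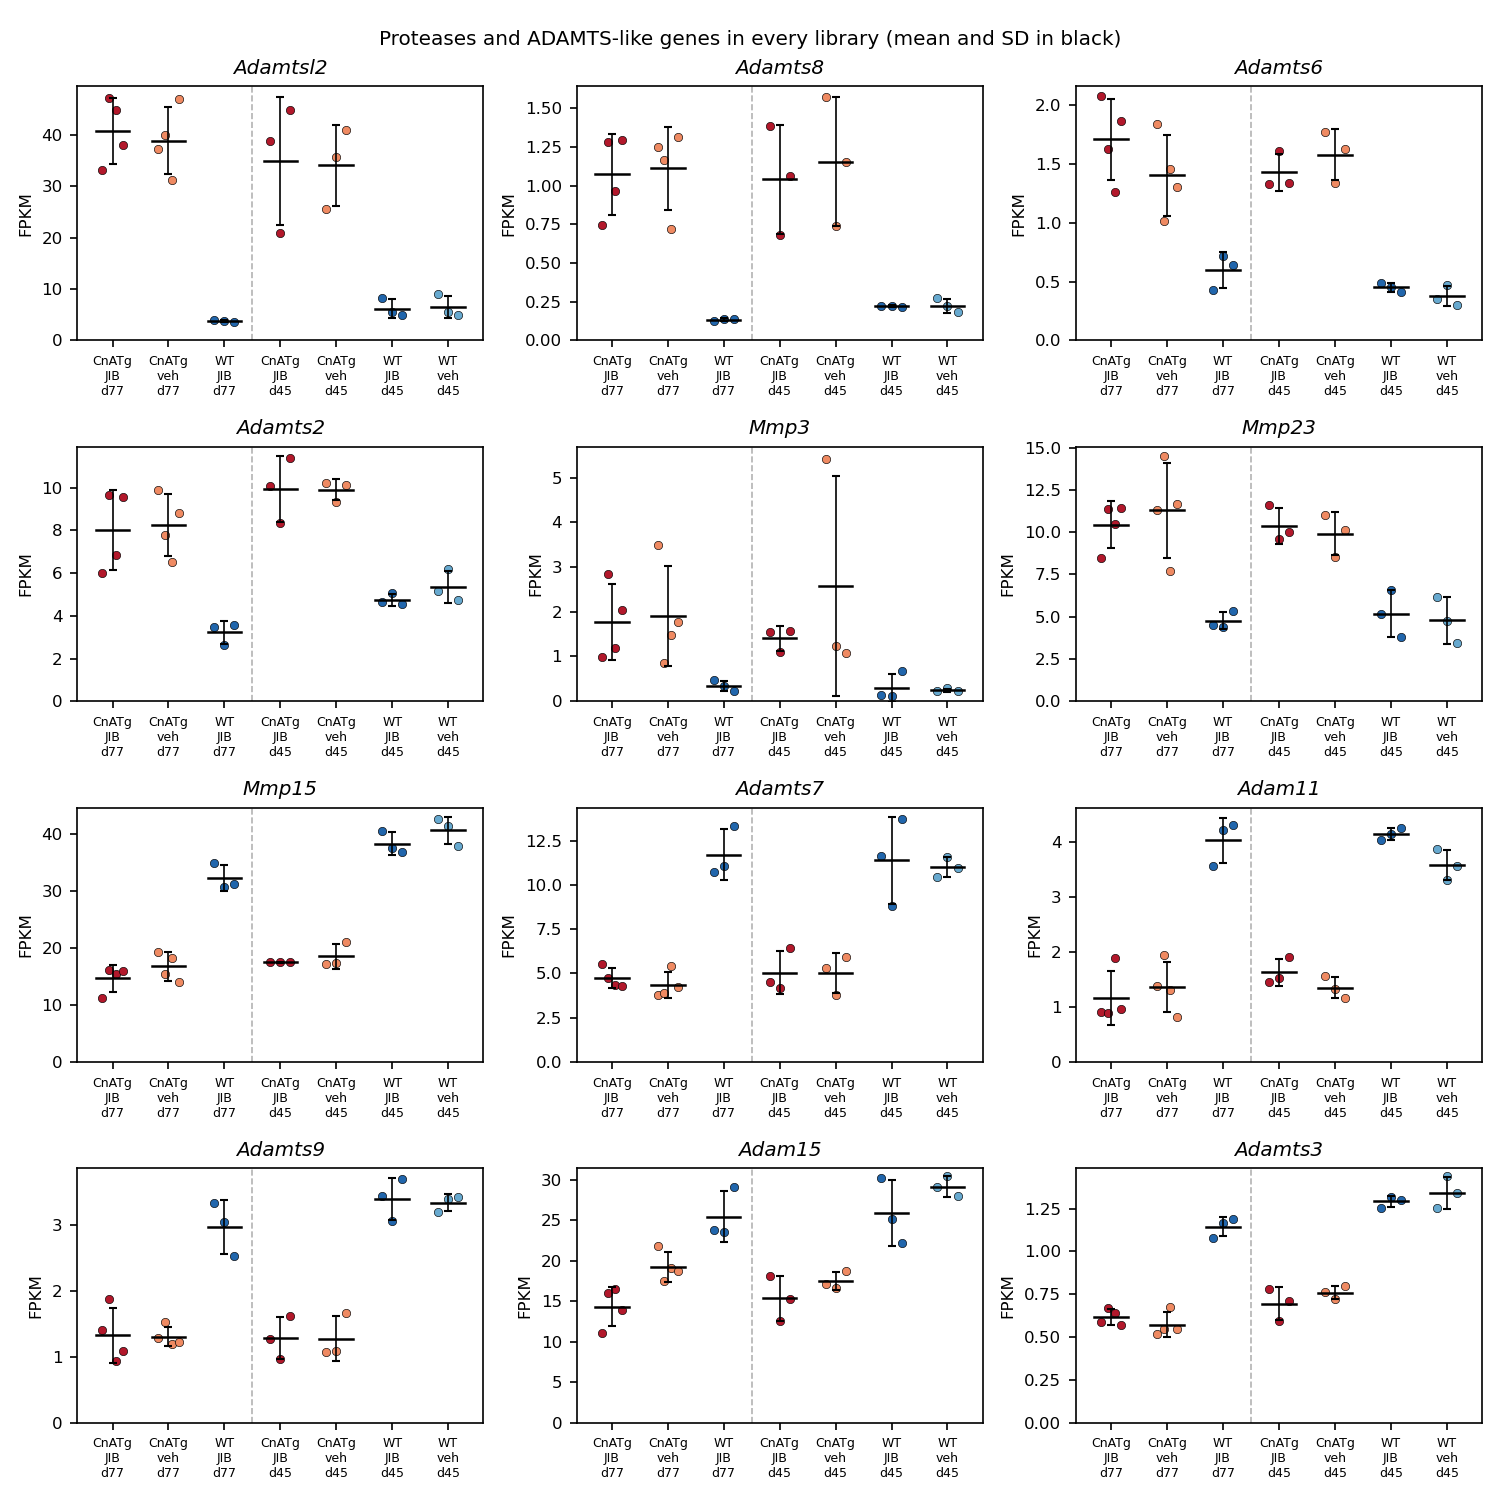
FPKM in every library (points) with the mean and SD of each group (black lines) for the 12 proteases and ADAMTS-like genes with large differences between genotypes, day 77 groups left of the dashed line and day 45 groups right of it. The upper 6 panels are higher and the lower 6 lower in CnATg than in WT; in Mmp15 every CnATg library is at 21.1 FPKM or less and every WT library at 30.8 or more.

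The genotype comparison was repeated in libraries that share no sample with it, among JIB-04 treated hearts of each age. At day 45 both comparisons came from the same fit with a shared estimate of spread, so their calls are not independent of each other. At day 45, 10 of the 36 genes were higher and 11 lower in CnATg than in WT (background 20.5% and 18.1% of 13289 features), and at day 77 11 were higher and 10 lower (background 19.9% and 22.1% of 13212 features). Of the 11 genes called higher with vehicle, 10 (90.9%) were called higher with JIB-04 at day 45 and 11 (100%) at day 77; all 8 called lower were lower again at both. Over all features, the same shares were 74.0% of the higher and 85.7% of the lower calls at day 45, and 67% of the higher and 83.2% of the lower calls at day 77. In all, 10 genes were higher and 8 lower in each of the 3 comparisons, and 13 were called in none. Among the 30 genes that reached 1 FPKM in both genotypes, 8 were higher and 10 lower with JIB-04 at day 45 and 8 higher and 9 lower at day 77. In all 3 comparisons 8 of them were higher and 7 lower. The share of all features called alike in all 3 comparisons was not taken, so these last counts have no background beside them. The splits over all features again moved with scaling, and without mitochondrial and hemoglobin genes stood at 83.5% higher at day 45 and 77.8% higher at day 77, beside 53.2% and 47.4% as deposited.

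With JIB-04 at day 77, Timp1 measured 10.98, 20.4, 13.7 and 15.0 FPKM in CnATg hearts and 1.85, 0.555 and 1.86 FPKM in WT hearts (log2 fold change 2.75, SE 0.42, adjusted p = 0.00030). Timp4 measured 10.3, 3.95, 3.00 and 0.985 FPKM in CnATg and 19.7, 37.5 and 17.8 FPKM in WT (log2 -2.43, SE 0.47, adjusted p = 0.0017). Both genes kept the groups apart, although the CnATg values of Timp4 were wide apart among themselves. Adamtsl2 measured 33.1, 47.1, 44.9 and 38.0 FPKM in CnATg and 3.90, 3.79 and 3.63 FPKM in WT, a ratio of means of 10.8 (log2 3.12, SE 0.14, adjusted p = 3.2e-08). With JIB-04 at day 45 the log2 fold changes of the 3 genes were 2.62 for Timp1, -2.62 for Timp4 and 2.28 for Adamtsl2.

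The calls of 5 genes differed between the 3 comparisons. Mmp3 had a log2 fold change of 0.90 with JIB-04 at day 45 (adjusted p = 0.062) and of 0.99 at day 77 (adjusted p = 0.015; 0.93 and 0.052 without WT replicate 3). Timp3 was lower with JIB-04 at day 77, at 57.0, 50.4, 53.8 and 50.6 FPKM in CnATg and 73.3, 97.7 and 59.7 FPKM in WT (log2 -0.50, SE 0.16, adjusted p = 0.022), and the call was lost without WT replicate 2 (-0.32, adjusted p = 0.092), with no filter on low values (adjusted p = 0.061) and on rescaling without mitochondrial and hemoglobin genes (-0.27, adjusted p = 0.14). Adamtsl3 was lower in both JIB-04 comparisons (log2 -0.61 and -0.65, adjusted p = 0.025 and 0.012); the call ended at day 45 without CnATg replicate 1 or 2 or WT replicate 1 or 2 (-0.60 to -0.50, adjusted p = 0.061 to 0.089), with no filter on low values (adjusted p = 0.065) or on the same rescaling (-0.45, adjusted p = 0.055), and at day 77 without WT replicate 3 (-0.58, adjusted p = 0.0501). Adamtsl4 was lower at day 45 (-0.43, adjusted p = 0.0033), but not on that rescaling (-0.19, adjusted p = 0.23). Adam10 was called lower with JIB-04 at day 45 (-0.22, adjusted p = 0.039), and leaving out any library of these groups but WT replicate 1 ended the call (-0.23 to -0.17, adjusted p = 0.071 to 0.14). Every group held both sexes by Ddx3y and Xist, in unequal shares. With JIB-04, 2 of 3 CnATg and 1 of 3 WT libraries were male at day 45, and 1 of 4 CnATg and 2 of 3 WT libraries at day 77. With sex as a covariate Adam10 was not called at day 45 (adjusted p = 0.052).

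The calls of Mmp2 and Adam17 with JIB-04 were lost under several settings. Mmp2 had a log2 value of 0.37 at day 45 (adjusted p = 0.042), which was no longer called without CnATg replicate 1 or 3 or WT replicate 2 or 3 (0.26 to 0.41, adjusted p = 0.052 to 0.15), nor with median-ratio scaling, equalised quantiles, no filter on low values or all 23 libraries in one fit (0.32 to 0.37, adjusted p = 0.053 to 0.099). Adam17 had -0.26 at day 77 (adjusted p = 0.028), no longer called without CnATg replicate 1 or 4 or WT replicate 1 or 2 (-0.25 to -0.20, adjusted p = 0.052 to 0.11), with sex as a covariate (-0.20, adjusted p = 0.058) or with a replicate block (-0.23, adjusted p = 0.091). On rescaling without mitochondrial and hemoglobin genes Adam17 stood at -0.07 at day 45 (adjusted p = 0.59) and -0.05 at day 77 (adjusted p = 0.65), so its place among the genes lower in all 3 comparisons depended on the scaling.

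Set against each other over all ages and treatments, the 14 CnATg libraries lay above all 9 WT libraries in 8 genes: Timp1, Timp2, Adamtsl2, Adamtsl5, Mmp3, Mmp23, Adamts6 and Adamts8. They lay under all WT libraries in 6 genes: Mmp15, Adam11, Adam15, Adamts3, Adamts7 and Adamts9. Without the genes that reached 1 FPKM in 1 genotype only, 5 lay above and 5 under. Among all expressed features 11.1% lay fully above and 9.34% fully under. Timp4 missed such a separation by a single library, CnATg JIB-04 day 77 replicate 1 at 10.3 FPKM beside WT vehicle day 45 replicate 2 at 10.2 FPKM. Adam9 and Adamts2 had 13 of 14 CnATg libraries above every WT library.

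The TIMP pool changed in make-up with little change in its summed FPKM, which was not rescaled to the library total. The 4 genes together came to 87.5 to 129 FPKM in CnATg and 96.8 to 162 FPKM in WT libraries, overlapping widely. Timp1 made up 8.39 to 28.9% of the sum in CnATg hearts and 0.342 to 1.70% in WT hearts. For Timp4 the share was 0.863 to 9.04% among CnATg libraries, against 9.17 to 23.1% among WT libraries. Timp3 was the most abundant TIMP in most libraries, at 35.9 to 50.5% of the sum in CnATg and 51.8 to 60.2% in WT, while Timp2 took 31.4 to 43.3% in CnATg and 16.4 to 32.4% in WT. The shares of Timp1, Timp3 and Timp4 therefore did not overlap between genotypes, and those of Timp2 overlapped slightly. Shares of a sum move against each other by construction.

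**Figure D4:**
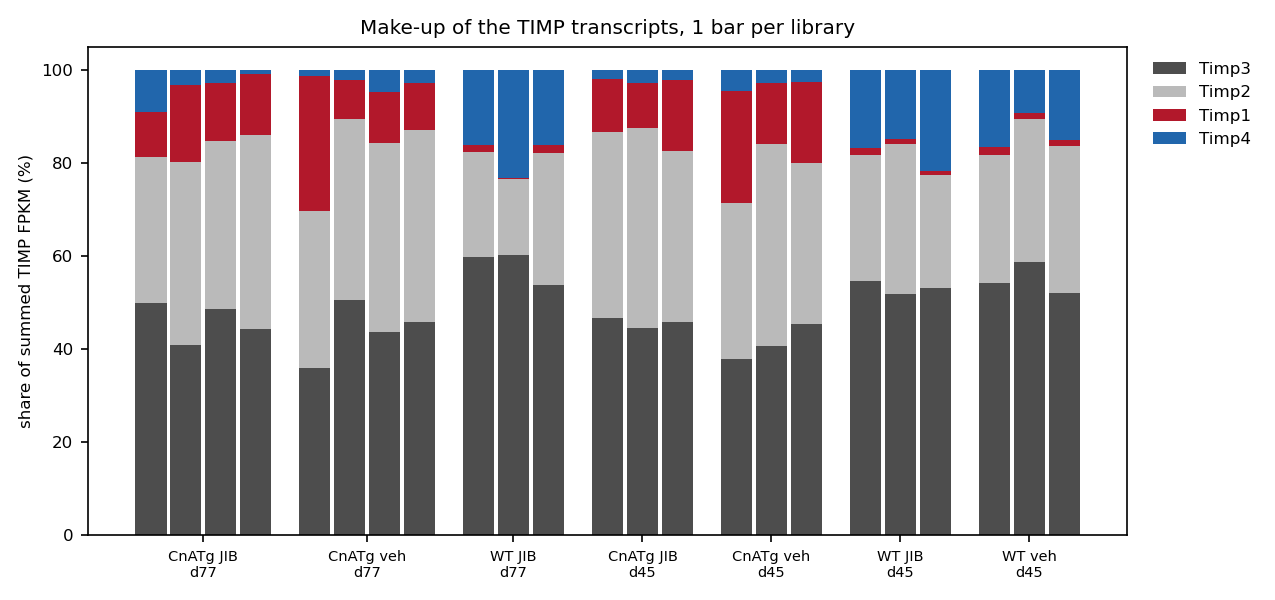
Share of summed TIMP FPKM (%) taken by each of the 4 TIMP genes, 1 bar per library, grouped by genotype, treatment and age. Timp1 is at 8.39 to 28.9% in the CnATg bars and at most 1.70% in the WT bars, and Timp4 is at least 9.17% in the WT bars.

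Of the other family sums, that of the ADAMTS-like genes did not overlap between genotypes and that of the ADAM genes overlapped slightly. These sums were taken over all features of a family, also those under the expression floor. They were not rescaled to the FPKM total of a library. That total was itself lower in CnATg, at 564750 to 596430, than in WT, at 690160 to 852690. The part of this offset in the differences between family sums was not tested. The ADAMTS-like genes together came to 88.4 to 125 FPKM in CnATg and 58.9 to 72.9 FPKM in WT libraries. The ADAM genes came to 60.1 to 72.1 FPKM in CnATg and 70.6 to 86.6 FPKM in WT libraries. The sums of the MMPs, at 54.7 to 85.2 in CnATg and 62.2 to 90.7 in WT, overlapped widely. So did those of the ADAMTSs, at 42.3 to 54.0 in CnATg and 44.6 to 56.1 in WT.

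Timp1, Timp4 and Timp3 each lie within the bounds of a synapsin gene, so reads of the host could be counted with the inhibitor. Over all 23 libraries Syn1, host of Timp1, lay at 0.0175 to 0.201 FPKM, Syn2, host of Timp4, at 0.376 to 1.42 FPKM and Syn3, host of Timp3, at 0.190 to 0.586 FPKM. In WT libraries Syn2 was at 0.376 to 0.869 FPKM, far under the Timp4 level there, and in CnATg libraries it was at 0.595 to 1.42 FPKM beside Timp4 values of 0.985 to 10.3 FPKM.

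JIB-04 itself moved none of the 36 genes past the threshold. In CnATg hearts at day 45 limma called 0 of 36 (0 at an unadjusted p under 0.05; 0.00753% of all features were called), in CnATg hearts at day 77 0 of 36 (1 at an unadjusted p under 0.05; 0% of all features), and in WT hearts at day 45 0 of 36 (0 at an unadjusted p under 0.05; 0% of all features). The median log2 change over the 36 genes was -0.04 in CnATg at day 45, -0.03 in CnATg at day 77 and 0.00 in WT, beside -0.03, -0.03 and 0.00 over all features. The 95% interval of a gene reached a median of 0.28 on the log2 scale to each side at day 45 and of 0.29 at day 77. Intervals lay wholly within 0.5 of no change for 28 of 36 genes in CnATg at day 45, 27 in CnATg at day 77 and 29 in WT at day 45.

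The genes with the widest intervals included those with the largest genotype differences. Timp1 measured 12.7, 10.02 and 19.5 FPKM in CnATg hearts with JIB-04 at day 45, against 31.2, 12.9 and 21.0 FPKM with vehicle. The groups overlapped (log2 -0.55, 95% interval -1.19 to 0.08), and the interval holds both no change and a fall by 1 on the log2 scale. At day 77 Timp1 measured 10.98, 20.4, 13.7 and 15.0 FPKM with JIB-04 and 36.6, 9.53, 9.64 and 10.4 FPKM with vehicle (log2 0.08, 95% interval -0.76 to 0.93), where one vehicle library lay far above the other 3. Timp4 in WT hearts at day 45 measured 21.7, 15.6 and 28.2 FPKM with JIB-04 and 21.0, 10.2 and 14.4 FPKM with vehicle (log2 0.51, 95% interval -0.11 to 1.13).

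The single gene at an unadjusted p under 0.05 was Adam15 in CnATg hearts at day 77. It measured 11.1, 16.0, 16.4 and 13.9 FPKM with JIB-04 and 21.8, 17.5, 19.0 and 18.7 FPKM with vehicle, without overlap (log2 -0.41, 95% interval -0.67 to -0.15, adjusted p = 0.61). At day 45 Adam15 measured 18.2, 12.6 and 15.3 FPKM with JIB-04 and 17.2, 16.6 and 18.7 FPKM with vehicle in CnATg hearts, which overlapped (log2 -0.19, 95% interval -0.47 to 0.09). Next in order of p at day 77 stood Mmp14 (log2 -0.27, 95% interval -0.56 to 0.03) and Adam9 (0.12, -0.04 to 0.29). At day 45 Timp2 (0.11, -0.03 to 0.24) and Adam11 (0.16, -0.05 to 0.37) followed Timp1 in CnATg, and Adamtsl4 (0.17, -0.04 to 0.37) and Adam11 (0.17, -0.04 to 0.37) stood beside Timp4 in WT.

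**Figure D5:**
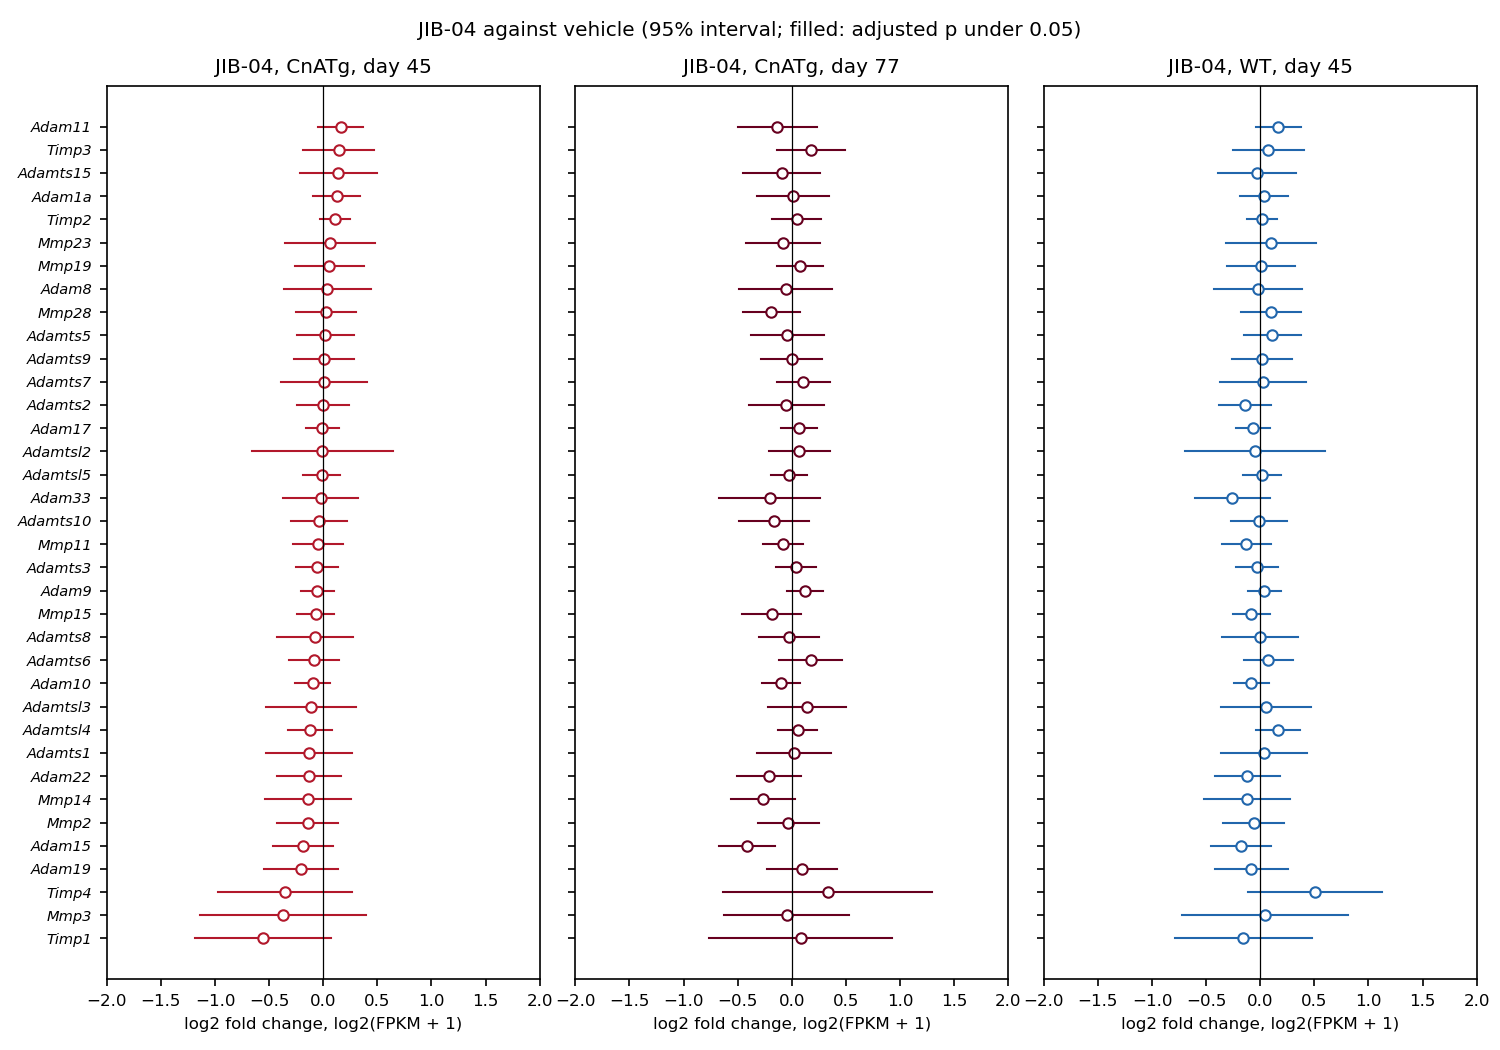
Log2 difference of JIB-04 over vehicle for each of the 36 expressed genes on the log2(FPKM + 1) scale, in CnATg at day 45, CnATg at day 77 and WT at day 45, with 95% intervals. No point is filled, since none had an adjusted p under 0.05 in limma; the widest intervals belong to Mmp3 at day 45 and to Timp4 at day 77.

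The response to JIB-04 was also not found to differ between genotypes at day 45. By limma, 0 of 36 genes passed the adjusted threshold for the interaction (0.00753% of all features did), and 1 had an unadjusted p under 0.05, Adamtsl4 (log2 -0.29, 95% interval -0.57 to -0.0016). Timp4 had the largest estimate, -0.86 with a 95% interval of -1.74 to 0.01. Adamts6 came next in order of p (log2 -0.16, 95% interval -0.49 to 0.16).

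Age gave 0 calls among the 36 genes in any of the 3 groups that could be compared by limma (5, 5 and 6 genes at an unadjusted p under 0.05; 0.0365%, 0.0365% and 0.328% of all features called). Mmp2 had the lowest p in each. It measured 24.4, 24.4, 25.3 and 28.1 FPKM at day 77 and 32.5, 39.4 and 32.8 FPKM at day 45 in CnATg hearts with vehicle, without overlap (log2 -0.43, adjusted p = 0.42). In WT hearts with JIB-04 it measured 18.6, 14.7 and 18.6 FPKM at day 77 and 26.1, 25.8 and 20.8 FPKM at day 45 (log2 -0.46, adjusted p = 0.14), also without overlap, and in CnATg hearts with JIB-04 the values overlapped (log2 -0.32, adjusted p = 0.60). Summed erythroid transcripts moved with age, at 4238 to 28321 FPKM at day 77 and 1224 to 2984 FPKM at day 45 in CnATg vehicle hearts, and their part in these values was not tested.

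After Mmp2 the lowest p-values with age were those of Adam17 and Adam19 in CnATg vehicle hearts (log2 -0.20 and -0.43), of Mmp14 and Mmp15 in CnATg JIB-04 hearts (-0.38 and -0.26) and of Adamts2 and Adam22 in WT JIB-04 hearts (-0.45 and 0.37). None passed the adjusted threshold in limma. For the genotype difference between ages under JIB-04, 0 of 36 genes passed (0.00729% of all features did) and 2 had an unadjusted p under 0.05: Adamtsl4 (log2 0.32, adjusted p = 0.67) and Adamtsl2 (0.84, adjusted p = 0.67). Adamts1 followed (0.48, adjusted p = 0.78).

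Genes that act on or with these enzymes changed in both directions between genotypes with vehicle at day 45, where 23.3% of all features were higher and 15.9% lower. Of 18 tested protease inhibitors and activators, 6 were higher and 3 lower in CnATg (median log2 -0.04, beside 0.07 over all features). Among the higher ones were the pro-protein convertase Furin, which activates membrane-type MMPs and ADAMs (log2 1.57), Serpinf1 (1.36), Thbs1 (1.17), the procollagen proteinase enhancer Pcolce (0.60) and Lrp1, a receptor that clears TIMP and MMP complexes (0.53). The lower ones were Papln (-0.86), the MMP inducer Bsg (-0.80) and the urokinase gene Plau (-0.44). Reck, a membrane inhibitor of MMPs, was not called (0.03).

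Of 12 tested partners of ADAMs, 4 were higher and 3 lower (median 0.08), beside the same shares of all features. Tspan15 and Tspan14, tetraspanins that guide ADAM10, had log2 values of -0.84 and -0.49, and Tspan17, of the same group, 0.84. Lgi2 and Lgi1, secreted ligands of the catalytically inactive ADAMs, had 1.52 and 1.03 and their relative Lgi3 -0.79. Rhbdf1, which carries ADAM17 to the cell surface, had 0.37.

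Of 20 tested ADAM substrates, 7 were higher and 5 lower (median -0.13), beside 23.3% and 15.9% of all features. The growth factor gene Hbegf had the largest value, 2.51, followed by Efna5 at 1.39, the hyaluronan receptor Cd44 at 0.88, Prnp at 0.53, Cx3cl1 at 0.52, the muscle cell cadherin Cdh2 at 0.49 and Vcam1 at 0.27. The endothelial cadherin Cdh5 fell by 1.06, Sdc4 and the Notch ligand Dll1 by 0.67 each, Erbb4 by 0.58 and Notch1 by 0.50.

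Matrix proteins that these enzymes cut were mostly higher: 15 of 22 tested, with 3 lower (median 0.69). Comp, a known ADAMTS7 substrate, had a log2 value of 2.31, Ltbp2 1.90, Thbs4 1.65, the collagen genes Col1a1 and Col3a1 1.58 and 0.99, and the small proteoglycan genes Bgn and Dcn 1.58 and 0.67. Versican (Vcan), cut by several ADAMTS enzymes, had 0.46. The lower ones were Ltbp1 (-0.77) and the basement membrane genes Col4a1 (-0.49) and Nid1 (-0.35). Under JIB-04 the counts for this list were 14 higher and 4 lower of 22 at day 45 and 13 higher and 2 lower of 21 at day 77, beside 20.5% higher and 18.1% lower over all features at day 45 and 19.9% higher and 22.1% lower at day 77.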

How the data were processed

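The genome build was GRCm38, and the tools named are Cufflinks 2.2.1, STAR 2.7.1a, GATK 4.1.2 and Picard, per the submitters' processing notes; their roles, the annotation and filters are not given in the sources used here. Trizol was used to extract RNA and the library kit kept no strand, per the labels' protocols. The deposited values are log2 FPKM per the file headers. They hold zeros and no negative value, so they were read as log2(FPKM + 1), used unchanged in tests and converted back for levels. A fold change is on that scale and understates low genes. Read counts are unknown, so no counting error was given.

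Tests used limma 3.58.1 in R 4.3.3 by group, with an intensity trend, two-sided, Benjamini-Hochberg adjusted over all features that reached 1 FPKM in 3 or more of the fitted libraries (12 at day 45, 11 at day 77, 23 across ages), with no replicate block. Code was tested on simulated data. The threshold was 0.05. In 6 files 1 blank line was dropped, and 3 mitochondrial features were left out. Deposited locus starts were raised by 1, and 24 of 36 loci then equalled GENCODE M21. Positions are 1-based. Sequences are from RefSeq. Genes and lists were chosen with earlier results of these data known. All 4 TIMPs and each gene called with vehicle at day 45 were to be shown by library, and elsewhere the called genes or the 3 of lowest p.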

Additional observations from a re-analysis of the deposited data

Results flagged for a closer look

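In groups of 4, a library was marked where its gap to the nearest other, as a share of the range, passed Dixon's 95% critical value for 4 samples. Chance marks about 1 in 20 groups, and 5 of 72 gene and group sets were marked. Timp1 reached 36.6 FPKM in CnATg vehicle day 77 replicate 1, beside 9.53, 9.64 and 10.4 in the others. Adamts15 reached 2.86 FPKM in replicate 4 of that group, beside 1.60 to 1.72, and Adam9 was lowest in its replicate 3 at 15.7 FPKM, beside 18.1 to 18.6. In CnATg JIB-04 day 77, Adam11 was highest in replicate 3 at 1.89 FPKM, beside 0.880 to 0.963, and Mmp15 lowest in replicate 1 at 11.2 FPKM, beside 15.4 to 16.1.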

How the results depend on the processing

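For the genes called in a genotype comparison and the 3 of lowest p in each other, 1453 values under the alternatives kept direction and side of the threshold, 40 lost the call and 1 reversed; genes not called between genotypes enter only the counts, where some gained a call. Rescaling without mitochondrial and hemoglobin genes gave 17 genes higher and 7 lower in the genotype comparison with JIB-04 at day 45, beside 10 and 11, and Adam10 turned to 0.017 (adjusted p = 0.89). It put the median log2 fold change of all features at 0.16 with vehicle, 0.23 with JIB-04 at day 45 and 0.19 at day 77, beside 0.07, 0.02 and -0.01 as deposited. The 40 lost calls were of Adam10, Adam17, Adamtsl3, Adamtsl4, Mmp2, Mmp3 and Timp3. Leaving out 1 library gave 10 to 12 genes higher and 8 to 10 lower with vehicle at day 45, 9 to 10 and 9 to 11 with JIB-04 at day 45, and 10 to 11 and 7 to 10 at day 77. JIB-04, age and interaction comparisons gave 0 genes throughout. Correlations of deviations between same-numbered replicates ran from -0.12 to 0.24. For JIB-04 in WT at day 45 each library matched its own number best (0.21, 0.05 and 0.24), but no comparison had every pair over 0.1, so the numbers were taken not to pair samples; with the replicate number as a block the 3 genotype counts were 12 higher and 9 lower, 12 and 12, and 11 and 9, and all others 0. Absolute depth is unknown, and precision rests on the spread between 3 or 4 libraries a group.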

Other observations

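Of the 48 features under the expression floor, a few passed limma's adjusted threshold when no filter on low values was applied, all at levels well under 1 FPKM. The collagenase gene Mmp13 was lower in CnATg in each genotype comparison. With vehicle at day 45 the means were 0.114 ± 0.0707 FPKM for CnATg and 0.459 ± 0.0326 FPKM for WT (SD, 3 libraries each; adjusted p = 0.0050). With JIB-04 they were 0.0814 FPKM in CnATg and 0.465 FPKM in WT at day 45 (adjusted p = 0.0029), and 0.0566 FPKM in CnATg and 0.347 FPKM in WT at day 77 (adjusted p = 0.00092). Mmp24, a membrane-type MMP known from the nervous system, was higher with vehicle at day 45, at 0.0648 FPKM in CnATg and 0.00767 FPKM in WT (adjusted p = 0.040). It was not called with JIB-04 at day 45 or day 77 (adjusted p = 0.12 and 0.069 in limma). With JIB-04 at day 77 the macrophage elastase gene Mmp12 was higher, at 0.674 FPKM in CnATg and 0.249 FPKM in WT (adjusted p = 0.028), and Mmp9 and the sperm gene Adam2 were lower (adjusted p = 0.042 and 0.0041). Of all features so tested, 19.8%, 19.4% and 22.2% were called in the 3 comparisons, and 8, 8 and 11 of the 48 were listed at 0 in every library of the fit.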
